A study of Rattus norvegicus with 54 samples.

Results

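Among 54 bulk RNA-seq libraries of rat nucleus accumbens, 13 carried the most Foxj1 transcript, and they were set against the 13 that carried the least. Foxj1, gene ID 116557 on the minus strand of chr10:102065163-102069945 of the deposited table, encodes a forkhead transcription factor. Libraries were ranked by their Foxj1 counts per M of total counts (CPM), and the 28 libraries ranked between the sets served as a separate check. The sets, called the Foxj1-high and Foxj1-low libraries, were chosen by this measured level, and neither is a treatment.

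Foxj1 switches on the genes of motile cilia, the beating cell projections that in the brain stand on the ependymal cells lining the ventricles. A motile cilium is built on an axoneme of doublet microtubules, on which dynein motors are held by docking, spoke and linker complexes. Its dyneins are assembled in the cytoplasm by dedicated factors before transport into the cilium. The nucleus accumbens, a part of the ventral striatum made mostly of spiny projection neurons, lies close to the lateral ventricle, its choroid plexus and its neurogenic wall, and to the septum.

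The study compared Long Evans rats of both sexes that all received a liquid-diet or ethanol condition before birth and a water or alcohol condition in adolescence. At postnatal day (P) 42, 24 h after the last adolescent exposure, the exposed groups had prenatal ethanol and water (PAE-VEH; 9 males and 4 females), and the controls had free-choice liquid diet and water (FCL-VEH; 9 males and 7 females). At P90 the exposed groups had prenatal ethanol and adolescent alcohol (PAE-AAE; 6 males and 5 females), beside FCL-VEH controls (6 males and 8 females), so that the prenatal and adolescent exposures cannot be told apart in adults. The labels name no transgene, litter or dissection boundary. They do not say that each library is a separate animal, so p-values measure the spread between libraries.

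Total counts ran from 59.1 to 86.4 M (median 71.8 M) in the Foxj1-high libraries and from 59.6 to 103.8 M (median 77.8 M) in the Foxj1-low libraries. All libraries carry 1 batch date, and no 2 columns hold the same counts. In 3 libraries Xist and Y-linked genes went against the labelled sex. Of these, replicate 5 of the PAE-VEH males at P42 is among the Foxj1-low libraries, and replicate 5 of the FCL-VEH females and replicate 8 of the FCL-VEH males at P42 lie between the sets. Replicates are numbered in order of deposition. Defining markers of the labelled tissue were present in every library of both sets: Drd1, a dopamine receptor of spiny neurons, had 235 to 467 CPM (median 306) in the Foxj1-high libraries and 110 to 412 CPM (median 302) in the Foxj1-low libraries.

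Foxj1 had 71.6 to 184.3 CPM (median 83.8; 4546 to 15243 counts) in the Foxj1-high libraries and 3.09 to 23.6 CPM (median 17.3; 248 to 2387 counts) in the Foxj1-low libraries. These are the values that chose the sets, and they carry no test. The nearest library outside the Foxj1-high set had 65.9 CPM, and the nearest outside the Foxj1-low set had 28.9 CPM. The 28 libraries between the sets had a median of 44.0 CPM. The borders were set by rank, with the lowest Foxj1-high library at 71.6 CPM and the highest Foxj1-low library at 23.6 CPM.

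The highest value, 184.3 CPM, was in FCL-VEH male replicate 3 at P90, followed by 164.1 CPM in PAE-AAE male replicate 6 at P90 and 130.9 CPM in PAE-VEH male replicate 7 at P42. PAE-VEH males at P42 also gave replicates 8 and 9, with 78.1 and 71.6 CPM, and PAE-VEH females at P42 gave replicate 3, with 71.7 CPM. The other 7 Foxj1-high libraries were controls between 72.6 and 97.9 CPM: 4 FCL-VEH females and 1 male at P42, and 2 FCL-VEH females at P90. At the other end, PAE-VEH male replicate 6 at P42 stood apart with 3.09 CPM, the next lowest being PAE-AAE male replicate 5 at P90 with 12.9 CPM. The other 11 Foxj1-low libraries lay between 13.6 and 23.6 CPM.

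Of the 13 Foxj1-high libraries, 6 were from males and 7 from females, 9 from P42 and 4 from P90, and 5 from exposed rats and 8 from controls. Of the 13 Foxj1-low libraries, 8 were from males and 5 from females, 5 from P42 and 8 from P90, and 7 from exposed rats and 6 from controls. FCL-VEH females at P42 had 4 libraries in the Foxj1-high set and 0 in the Foxj1-low set, and PAE-AAE females at P90 had 0 and 1. With the labelled group as covariate these 2 groups add nothing to the difference between the sets, which rests on the 6 groups with libraries in both.

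**Figure D1:**
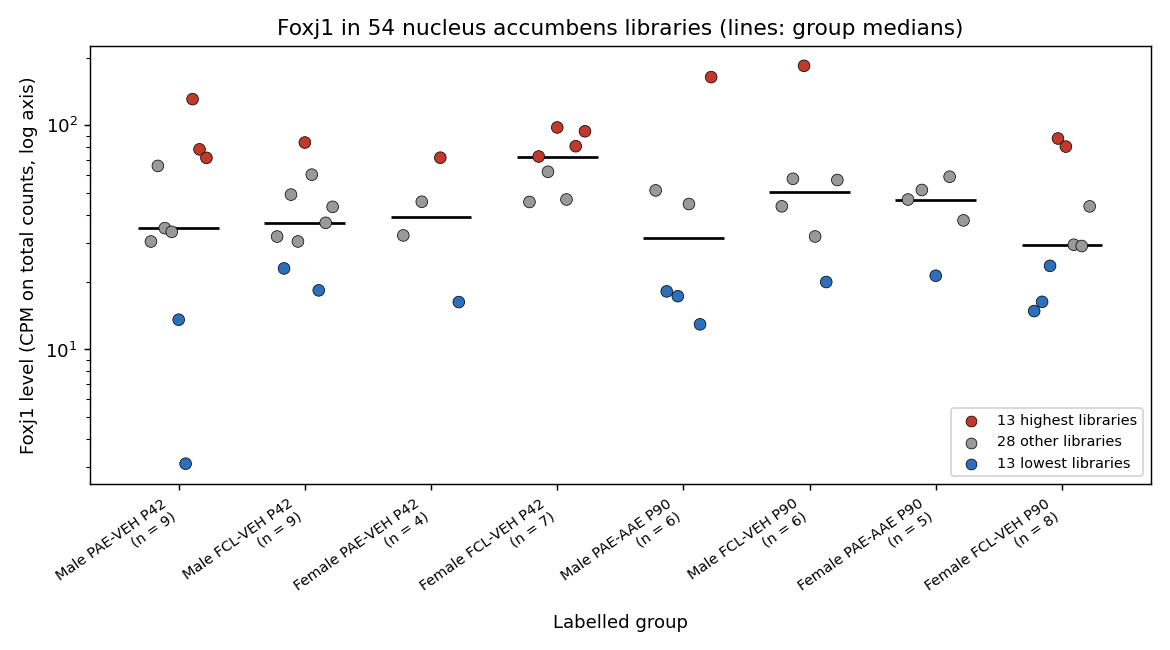
Foxj1 level in CPM of total counts (log axis) in each of the 54 libraries, by labelled group, with the Foxj1-high, Foxj1-low and other libraries marked. Lines are group medians, and the PAE-VEH males at P42 alone span 3.09 to 130.9 CPM.

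Foxj1 also varied within every labelled group. Exposed against control, PAE-VEH males at P42 had 3.09 to 130.9 CPM (median 34.8) and FCL-VEH males 18.4 to 83.8 CPM (median 36.7). PAE-VEH females at P42 had 16.3 to 71.7 CPM (median 38.9) and FCL-VEH females 45.5 to 97.9 CPM (median 72.6). In neither sex did the groups separate.

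At P90, PAE-AAE males had 12.9 to 164.1 CPM (median 31.4) and FCL-VEH males 19.99 to 184.3 CPM (median 50.3). PAE-AAE females had 21.3 to 58.97 CPM (median 46.7) and FCL-VEH females 14.8 to 87.4 CPM (median 29.1). Again the ranges overlapped.

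The labelled groups were not used to choose the sets, so Foxj1 can be tested between them. No labelled comparison reached an adjusted p of 0.05 by edgeR's quasi-likelihood test with Benjamini-Hochberg adjustment over all genes. PAE-VEH over FCL-VEH gave a log2 fold change of 0.30 ± 0.40 (SE) in males (adjusted p = 0.870) and -0.72 ± 0.54 in females (adjusted p = 0.622), with a female minus male difference of -1.02 ± 0.67 (adjusted p = 0.600). PAE-AAE over FCL-VEH gave -0.37 ± 0.56 in males (adjusted p = 0.881) and 0.16 ± 0.55 in females (adjusted p = 1.0), with a difference of 0.53 ± 0.78 (adjusted p = 0.859).

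In controls, Foxj1 at P90 over P42 gave 0.66 ± 0.39 in males (adjusted p = 0.380) and -0.80 ± 0.38 in females (unadjusted p = 0.0453, adjusted p = 0.315). The female minus male difference of these age effects was -1.47 ± 0.54 (unadjusted p = 0.0115), and it did not pass adjustment (adjusted p = 0.501). The age and exposure comparisons share their FCL-VEH libraries. In the 4 exposure comparisons and the 3 differences between the sexes, edgeR called 0 genes of 24741, 24018 or 24065 tested, which is 0% in each.

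The unadjusted p lay under 0.05 for 2217 genes (8.96%) in males and 2786 (11.3%) in females at P42, and for 2100 (8.74%) in males and 1015 (4.23%) in females at P90. In the differences between the sexes it did so for 2617 genes (10.6%) at P42, 2544 (10.6%) at P90 and 2045 (8.5%) in the age effect. DESeq2 called 24 and 86 genes at P42, 2 and 8 at P90, and 72, 0 and 0 in those differences. In control males edgeR called 465 genes higher at P90 (1.93%) and 145 lower (0.603%), and in control females 54 higher (0.224%) and 47 lower (0.195%); the unadjusted p lay under 0.05 for 17.6% of genes in males and 15.3% in females.

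The motile cilium genes described below did not pass in the exposure comparisons. Over their tested members the median log2 change was 0.18 in PAE-VEH males and -0.70 in PAE-VEH females at P42, and -0.19 in PAE-AAE males and -0.07 in PAE-AAE females at P90, with 0 called in each. In controls at P90 over P42 the median was 0.45 in males and -0.73 in females. The only members called were Cfap298, a dynein assembly factor, at 0.33 ± 0.08 (adjusted p = 0.0259), and Dnah17, a dynein heavy chain known from mouse and human sperm, at -0.93 ± 0.24 (adjusted p = 0.0308), both in control males.

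Foxj1-high libraries were then compared with Foxj1-low libraries across all other genes, with the labelled group as covariate. Because Foxj1 chose the sets, a call says that a gene varied with Foxj1 over these libraries. Of 26078 genes tested, 2547 were higher in the Foxj1-high libraries (9.77%) and 1695 were lower (6.5%). The changes were unequal in size. The genes that rose had a median log2 fold change of 1.20, and 784 exceeded 2. The genes that fell had a median of -0.29, and 49 went beyond -2. Over all genes tested the median was -0.02.

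In 584 genes (2.24%) every Foxj1-high library lay above every Foxj1-low library. The reverse held in 2 genes (0.00767%), named here after their values were seen. Rtn1, a reticulon of neurons, had 967 to 1078 CPM in the Foxj1-high libraries and 1085 to 1496 CPM in the Foxj1-low libraries. Celf4, an RNA-binding protein of neurons, had 501 to 544 CPM in the Foxj1-high libraries and 552 to 674 CPM in the Foxj1-low libraries.

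The count of genes lower changed when single libraries were left out. With the labelled group as covariate, a group left in only 1 of the sets adds nothing to the difference. FCL-VEH males at P90 have 1 library in each set, so leaving out replicate 3 or 5 removes what the whole group adds. It was 940 without PAE-VEH male replicate 6 at P42, 985 without FCL-VEH male replicate 5 at P90, 999 without FCL-VEH female replicate 4 at P90 and 1110 without FCL-VEH male replicate 3 at P90. The count of genes higher lay between 2144 and 2668 whichever library was left out.

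The relation was measured again in the 28 libraries between the sets, which the contrast did not use. There the slope, in log2 change per log2 unit of Foxj1, was above 0 and past the threshold in 475 genes (1.82%) and below 0 in 13 (0.0499%), with 10.2% of genes at an unadjusted p under 0.05. Of the 2547 genes higher in the Foxj1-high libraries, 2428 had a slope above 0, as did 49% of all genes tested, and 471 passed. Of the 1695 genes lower, 1612 had a slope below 0, as did 51% of all genes tested, and 11 passed. No gene was called in opposite directions.

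The Foxj1 range of these libraries is narrower by construction. The 13 genes with a slope below 0 became 239 without FCL-VEH male replicate 6 at P90 and 1 without FCL-VEH male replicate 6 at P42. They numbered 5 and 8 without PAE-VEH male replicate 1 and FCL-VEH male replicate 1 at P42, and 8 without FCL-VEH male replicate 3 at P42 or PAE-AAE female replicate 4 at P90. They numbered 20 and 22 without PAE-VEH male replicates 3 and 2 at P42, and 21 without FCL-VEH male replicate 4 at P90.

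Motile cilium genes were the members of 6 lists ordered by role, with 113 genes in the table besides Foxj1 and 112 tested. Of these, 90.2% were higher in the Foxj1-high libraries, which is all but 11, and 0 were lower, against 9.77% and 6.5% of all genes. In 86 of the 112 every Foxj1-high library lay above every Foxj1-low library, against 2.24% of all genes. The median log2 fold change of the 112 was 2.24. In the 28 libraries between the sets 85 had a slope above 0 that passed, against 1.82% of all genes, with a median slope of 0.99. Summed over the lists, they took 2918 to 6751 CPM (median 3725) in the Foxj1-high libraries and 626 to 1482 CPM (median 1200) in the Foxj1-low libraries. These sums did not overlap.

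**Figure D2:**
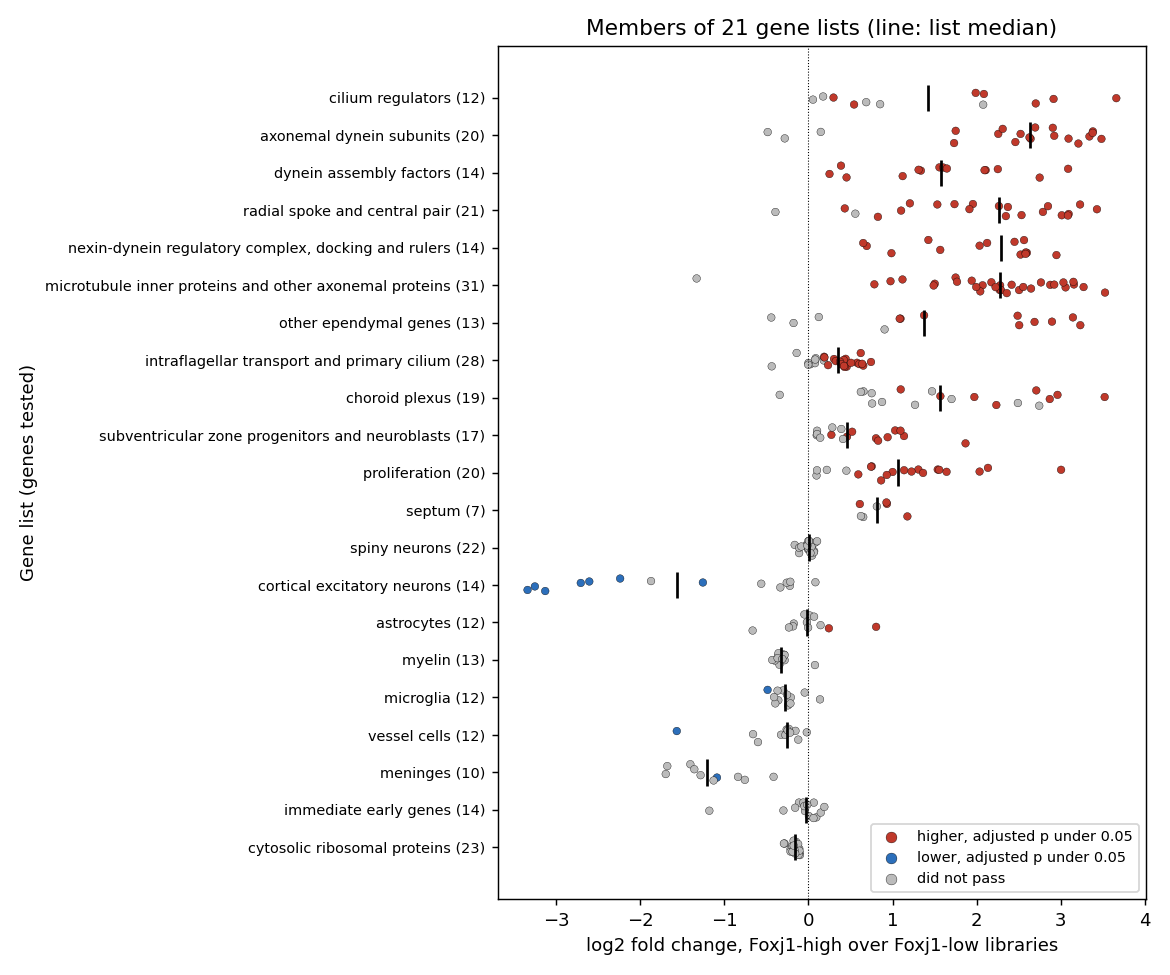
Log2 fold change, Foxj1-high over Foxj1-low libraries, of every tested member of each gene list, with members past the threshold marked and the list medians drawn. The motile cilium lists have medians between 1.42 and 2.63, and the spiny neuron list has a median of 0.01.

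Bulk libraries cannot tell more cells of a type from more RNA per cell, which holds for every gene group here.

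Per kilobase of the gene length in the deposited table, Foxj1 had the highest median level of these lists in the Foxj1-high libraries, which were chosen for it, but not in the Foxj1-low libraries. Its median was 31.8 CPM per kb in the Foxj1-high libraries and 6.57 in the Foxj1-low libraries. That length, 2633 bases for Foxj1 and 32129 for Drc3, need not be that of a transcript, so the order is not one of transcript levels. Next in the Foxj1-high libraries was Spag6l, a central pair protein, with 31.0 CPM per kb in the Foxj1-high libraries and 11.8 in the Foxj1-low libraries. Enkur, an inner protein of the doublet microtubules, had 26.4 CPM per kb in the Foxj1-high libraries and 8.67 in the Foxj1-low libraries. Cfap298, above Foxj1 in the Foxj1-low libraries as Spag6l and Enkur were, had 23.2 CPM per kb in the Foxj1-high libraries and 19.6 in the Foxj1-low libraries.

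Among the regulators of ciliated cells, 7 of 12 tested besides Foxj1 rose and 0 fell, with a median of 1.42. Of all genes, 9.77% rose and 6.5% fell. Rfx2, a regulatory factor X protein that acts with Foxj1 on ciliary genes, had 15.04 to 40.4 CPM (median 19.5) in the Foxj1-high libraries and 2.83 to 9.61 CPM (median 6.01) in the Foxj1-low libraries. The sets did not overlap, and the log2 fold change was 1.99 ± 0.16 (adjusted p = 1.75e-08). Rfx4, another factor of that family, rose by 0.54 ± 0.08 (adjusted p = 2.98e-05) with overlapping sets. Rfx3, also of that family, had a median of 107.7 CPM in the Foxj1-high libraries and 90.4 CPM in the Foxj1-low libraries and did not pass (0.17 ± 0.08, adjusted p = 0.157).

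Tp73, listed as Trp73 in mouse, encodes a p53 family factor needed for multiciliated cells. It had 14.2 to 39.8 CPM (median 20.6) in the Foxj1-high libraries and 1.08 to 8.14 CPM (median 3.36) in the Foxj1-low libraries, a non-overlapping difference of 2.70 ± 0.23 (adjusted p = 2.8e-08). Myb, a factor of early multiciliogenesis, had 20.9 to 52.3 CPM (median 25.8) in the Foxj1-high libraries and 0.773 to 6.54 CPM (median 4.78) in the Foxj1-low libraries, again without overlap (2.91 ± 0.25, adjusted p = 3.54e-08). A little-annotated locus that overlaps Myb on the other strand also rose, and the libraries carry no strand.

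The genes that start centriole amplification in precursors of multiciliated cells were low in all libraries. Deup1, a deuterosome protein, had 0.874 to 3.51 CPM in the Foxj1-high libraries and 0.137 to 0.887 CPM in the Foxj1-low libraries (2.09 ± 0.27, adjusted p = 7.24e-06). Ccno, a cyclin of centriole amplification, had 0.0859 to 0.965 CPM in the Foxj1-high libraries and 0 to 0.234 CPM in the Foxj1-low libraries (3.66 ± 0.92, adjusted p = 0.00818). Mcidas, which acts above Foxj1, had at most 0.621 CPM in a Foxj1-high library and at most 0.180 CPM in a Foxj1-low library, and it did not pass (adjusted p = 0.229). Its relative Gmnc had a median of 1.78 CPM in the Foxj1-high libraries and 1.01 CPM in the Foxj1-low libraries and did not pass either (adjusted p = 0.0764).

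Regulatory factor X proteins are known to bind a palindromic promoter motif called the X-box. Promoters of 300 bases, from 250 before to 50 after a start site, were read from RefSeq for the rat assembly GRCr8, with the promoter of Foxj1 not among them. Of 27457 genes with a promoter, 3251 have several start sites, and the one listed first was used. The motif was spelled as GTNNCC, then 3 free bases, then GNAAC, and searched on both strands. This spelling was chosen after several had been tried on these promoters. It was present in 20 of 93 promoters of tested motile cilium genes (21.5%), 124 of 1952 promoters of genes higher in the Foxj1-high libraries (6.35%), 14 of 1357 promoters of genes lower (1.03%) and 577 of all 27457 promoters (2.1%). With the motile cilium lists left out, 105 of 1869 promoters of genes higher held it (5.62%). Counting a match at any start site of a gene, an alternative chosen after seeing the data, gave 21.5% of motile cilium genes and 2.2% of all genes.

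The shorter GTTGCC, which can lie inside that motif, was in 37.6% of the motile cilium promoters and 12.2% of all promoters. The forkhead motif TGTTTAC was in 3.23% of the motile cilium promoters and 3.76% of all promoters. A match says only that these letters are in this window. Shown here are the promoters of the 5 motile cilium genes with the smallest adjusted p among the 19 called that held the X-box letters. They encode inner proteins or other parts of the axoneme (Cfap45, Cfap61), dynein assembly factors (Dnaaf5, Zmynd10) and the central pair protein Hydin. Each is printed 5′ to 3′ on its gene's strand with the matched letters in capitals, some of which match as the reverse complement.
Cfap45, chr13:87521581-87521880, plus strand: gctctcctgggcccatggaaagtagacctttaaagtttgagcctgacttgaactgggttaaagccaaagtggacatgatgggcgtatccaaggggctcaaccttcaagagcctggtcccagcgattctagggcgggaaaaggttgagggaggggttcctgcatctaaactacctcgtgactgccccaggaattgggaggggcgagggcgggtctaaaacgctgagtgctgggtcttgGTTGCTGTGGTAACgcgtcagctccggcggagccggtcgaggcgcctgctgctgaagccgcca
Cfap61, chr3:153807422-153807721, plus strand: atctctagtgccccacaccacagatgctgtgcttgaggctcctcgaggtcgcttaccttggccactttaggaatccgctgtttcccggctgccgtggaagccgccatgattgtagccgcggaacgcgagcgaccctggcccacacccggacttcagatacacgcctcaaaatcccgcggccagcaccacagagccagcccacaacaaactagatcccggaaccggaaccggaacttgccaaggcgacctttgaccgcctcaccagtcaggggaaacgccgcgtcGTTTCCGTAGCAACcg
Dnaaf5, chr12:20606431-20606730, minus strand: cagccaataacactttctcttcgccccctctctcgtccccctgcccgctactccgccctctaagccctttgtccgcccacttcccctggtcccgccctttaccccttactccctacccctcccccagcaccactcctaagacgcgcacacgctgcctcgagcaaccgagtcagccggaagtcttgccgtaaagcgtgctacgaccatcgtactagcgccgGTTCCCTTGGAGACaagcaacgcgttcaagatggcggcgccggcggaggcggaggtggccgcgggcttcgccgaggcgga
Hydin, chr19:55146216-55146515, plus strand: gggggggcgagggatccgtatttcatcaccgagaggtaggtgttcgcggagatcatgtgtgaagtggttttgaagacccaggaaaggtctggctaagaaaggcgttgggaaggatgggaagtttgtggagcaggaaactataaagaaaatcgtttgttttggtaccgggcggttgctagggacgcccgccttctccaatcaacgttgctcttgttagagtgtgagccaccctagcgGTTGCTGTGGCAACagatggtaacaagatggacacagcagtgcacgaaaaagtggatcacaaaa
Zmynd10, chr8:117098779-117099078, plus strand: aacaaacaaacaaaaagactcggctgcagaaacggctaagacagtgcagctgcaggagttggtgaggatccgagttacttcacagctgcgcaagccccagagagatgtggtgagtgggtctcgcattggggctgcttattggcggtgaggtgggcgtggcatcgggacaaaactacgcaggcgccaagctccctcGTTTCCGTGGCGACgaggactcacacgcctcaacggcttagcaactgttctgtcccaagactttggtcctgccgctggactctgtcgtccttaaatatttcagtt
In Cfap45, Hydin, Dnaaf5 and Zmynd10 the match began 13, 14, 30 and 55 bases before the start site on which the window is placed, and in Cfap61 it began 34 bases after it. In Cfap45 and Cfap61 that site is the first base of the gene in the deposited table. In Hydin, Dnaaf5 and Zmynd10 it lies 84, 120 and 239 bases inside the gene of that table, so that these matches stand within the annotated gene.

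Axonemal dyneins, the motors that bend the cilium, rose in 17 of 20 genes tested and 0 fell, against 9.77% and 6.5% of all genes. All 17 were without overlap between the sets, against 2.24% of all genes. The 20 had a median of 2.63. Together they took 1013 to 2394 CPM (median 1290) in the Foxj1-high libraries and 199 to 497 CPM (median 398) in the Foxj1-low libraries. Dnah5, an outer arm heavy chain, had 63.5 to 184 CPM (median 81.7) in the Foxj1-high libraries and 3.89 to 26.6 CPM (median 14.3) in the Foxj1-low libraries, a difference of 2.90 ± 0.21 (adjusted p = 7.35e-09). Dnah11, its partner heavy chain, had 36.2 to 95.8 CPM (median 50.6) in the Foxj1-high libraries and 3.74 to 14.97 CPM (median 9.45) in the Foxj1-low libraries (2.69 ± 0.19, adjusted p = 6.97e-09).

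Inner arm heavy chains and intermediate chains rose as well. Dnah6, an inner arm heavy chain, had 57.0 to 165 CPM (median 78.4) in the Foxj1-high libraries and 1.18 to 17.9 CPM (median 9.80) in the Foxj1-low libraries. It rose by 3.48 ± 0.30 (adjusted p = 2.8e-08), and its slope between the sets was 1.71. Dnah10, an inner arm heavy chain too, differed by 3.21 ± 0.26 (adjusted p = 2.17e-08). The intermediate chains Dnai1 and Dnai4 rose by 2.31 ± 0.17 (adjusted p = 1.23e-08) and 1.75 ± 0.12 (adjusted p = 6.97e-09).

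The 3 dynein genes that did not pass were Dnah8 (-0.48 ± 0.38, adjusted p = 0.442) and Dnah17 (-0.28 ± 0.18, adjusted p = 0.312), heavy chains known from mouse and human sperm, and the light chain Dnal1 (0.15 ± 0.05, adjusted p = 0.055). Dnah8 and Dnah17 had at most 5.36 and 4.18 CPM in any library of the sets. Dnal1 had 186.7 to 225 CPM in the Foxj1-high libraries and 143.4 to 191 CPM in the Foxj1-low libraries.

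All 14 dynein assembly factors rose, 10 without overlap, against 9.77% and 2.24% of all genes, with a median of 1.58. Zmynd10, a factor of the cytoplasmic assembly of dynein arms, had 33.7 to 81.03 CPM (median 45.6) in the Foxj1-high libraries and 3.43 to 18.8 CPM (median 14.0) in the Foxj1-low libraries (2.09 ± 0.19, adjusted p = 6.77e-08). Dnaaf8, a factor of the same process, rose by 2.25 ± 0.21 (adjusted p = 5.7e-08) and Spag1, a co-chaperone, by 1.6 ± 0.14 (adjusted p = 4.5e-08). Cfap300 rose by 1.65 ± 0.15 (adjusted p = 7.64e-08) and Dnaaf4 by 1.34 ± 0.14 (adjusted p = 2.42e-07).

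Dnaaf5, whose start overlaps Prkar1b on the other strand, rose by 1.12 ± 0.09 (adjusted p = 2.1e-08), while Prkar1b, a kinase subunit of neurons, fell by 0.38 on the log2 scale (adjusted p = 0.00296). The smallest differences of the list were in Cfap298 (0.25, adjusted p = 0.0141) and Dnaaf2 (0.39, adjusted p = 0.00883).

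Radial spokes and the central pair, which set the rhythm of the dyneins, rose in 19 of 21 genes, 15 without overlap. Over all genes these shares were 9.77% and 2.24%, and the list median was 2.26. Hydin, a large central pair protein, had 118 to 314 CPM (median 154) in the Foxj1-high libraries and 3.58 to 45.6 CPM (median 28.6) in the Foxj1-low libraries, a difference of 2.79 ± 0.26 (adjusted p = 5.98e-08). Rsph4a, a spoke head protein, had 22.5 to 75.6 CPM (median 34.8) in the Foxj1-high libraries and 0.486 to 8.95 CPM (median 4.42) in the Foxj1-low libraries (3.23 ± 0.26, adjusted p = 1.88e-08). The sets stayed apart in both genes.

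Spag17, a central pair protein, rose by 3.43 ± 0.31 (adjusted p = 4.47e-08), and Cfap54 and Spef2 of the same apparatus by 2.26 ± 0.17 (adjusted p = 1.27e-08) and 3.01 ± 0.28 (adjusted p = 7.86e-08). Rsph1 of the spoke head rose by 1.95 ± 0.17 (adjusted p = 4.35e-08). The 2 members that did not pass were Rsph6a (-0.39 ± 0.17, adjusted p = 0.126), known from mouse sperm, and Spag6 (0.56 ± 0.48, adjusted p = 0.481). Spag6 had at most 0.643 CPM, and reads may be split between it and its close copy Spag6l.

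The linkers, docking complexes and rulers of the axoneme rose in all 14 genes, 13 without overlap. Over all genes these shares were 9.77% and 2.24%, and the list median was 2.29. Ccdc40, a ruler that sets the repeat along the doublet, had 33.1 to 82.5 CPM (median 40.7) in the Foxj1-high libraries and 2.51 to 13.3 CPM (median 8.03) in the Foxj1-low libraries (2.56 ± 0.20, adjusted p = 1.61e-08). Of the nexin-dynein regulatory complex, Drc7 rose by 2.95 ± 0.26 (adjusted p = 4.65e-08), Drc1 by 2.03 ± 0.19 (adjusted p = 7.86e-08), Drc3 by 1.42 ± 0.12 (adjusted p = 3.26e-08) and Tcte1 by 2.12 ± 0.16 (adjusted p = 1.27e-08). Odad4, a docking protein of the outer arm, rose by 2.58 ± 0.22 (adjusted p = 2.66e-08).

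Inner proteins of the doublet and other axonemal proteins rose in 30 of 31 genes tested, 28 without overlap. Over all genes these shares were 9.77% and 2.24%, and the list median was 2.28. Pierce2 had 0 counts in every library of both sets and was not tested. It lies inside Dnaaf4 on the other strand, and the libraries carry no strand, so its level cannot be read here. The smallest adjusted p of all genes belonged to Tekt2, a tektin of the doublet. It had 9.87 to 25.9 CPM (median 14.0) in the Foxj1-high libraries and 1.56 to 3.59 CPM (median 2.79) in the Foxj1-low libraries, at 2.36 ± 0.14 (adjusted p = 2.26e-09). The ranges did not overlap, and its slope in the libraries between the sets was 0.96 ± 0.17 (adjusted p = 0.00123).

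Mns1 rose by 2.07 ± 0.16 (adjusted p = 1.27e-08), Cfap52 by 2.28 ± 0.18 (adjusted p = 1.27e-08), Cfap45 by 2.65 ± 0.21 (adjusted p = 1.27e-08), Cfap61 by 2.17 ± 0.17 (adjusted p = 1.61e-08) and Cimip2b by 2.55 ± 0.20 (adjusted p = 1.61e-08). All are parts of the axoneme. Cimip1 alone did not pass, with at most 0.143 CPM in any library of the sets.

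**Figure D3:**
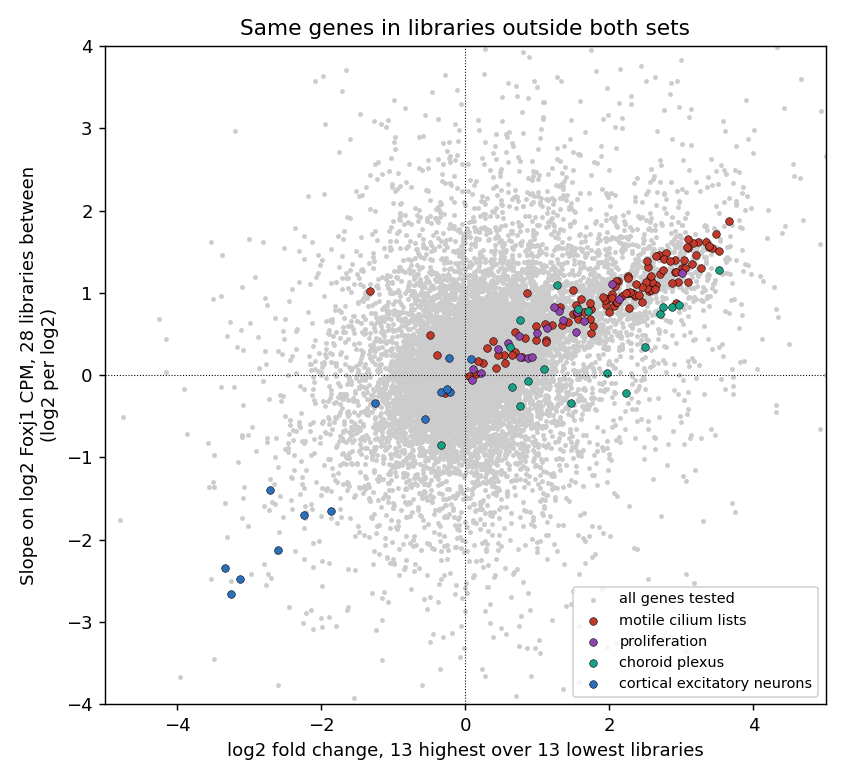
Log2 fold change, Foxj1-high over Foxj1-low libraries (x axis), and slope on log2 Foxj1 CPM in the 28 libraries between the sets (y axis, log2 per log2) for all genes tested, with the motile cilium, proliferation, choroid plexus and cortical neuron genes coloured; 48 genes lie outside the axes. The motile cilium genes have medians of 2.24 on the x axis and 0.99 on the y axis.

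The 10 genes that rose with the smallest adjusted p were Tekt2, Msx1, Dnai4, Dnah11, Myo7a, Kiaa2012, Fam47e, Dnah5, Ttc21a and Lrriq1, and in all 10 the sets did not overlap. Outside the cilium lists, Myo7a, an unconventional myosin, had 15.1 to 39.4 CPM (median 22.2) in the Foxj1-high libraries and 1.82 to 6.19 CPM (median 3.58) in the Foxj1-low libraries (2.71 ± 0.19, adjusted p = 6.97e-09). Fam47e differed by 2.91 ± 0.21 (adjusted p = 6.97e-09), Kiaa2012 by 2.29 ± 0.16 (adjusted p = 6.97e-09) and Lrriq1 by 2.50 ± 0.18 (adjusted p = 1.01e-08). Ttc21a, a relative of an intraflagellar transport protein, differed by 2.83 ± 0.21 (adjusted p = 8.75e-09). Each of these genes also had a slope above 0 that passed in the libraries between the sets.

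The libraries carry no strand, so genes that overlap a motile cilium gene can share its reads. Of the 2446 genes higher outside the motile cilium lists, 32 (1.31%) overlap a motile cilium gene in the annotation, against 72 of 25966 tested (0.277%). The pseudogene Set-ps9 inside Spag17 had a log2 fold change of 4.32 (adjusted p = 0.00376) and Phb1-ps4 inside Dnah6 one of 4.65 (adjusted p = 0.00104). Their medians were 0.0604 and 0.251 CPM in the Foxj1-high libraries and 0 in the Foxj1-low libraries, and reads of a pseudogene and its host cannot be told apart.

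The label was checked against 9 ependymal markers besides Foxj1, of which 7 rose and did not overlap between the sets. Over all genes the shares were 9.77% higher and 2.24% with every Foxj1-high library above every Foxj1-low library. Of the 7 markers, Spag17, Dnah9, Dynlrb2, Ak7 and Cfap126 also belong to the motile cilium lists above, so for them this is no separate check. Tmem212 had 22.01 to 59.4 CPM (median 31.3) in the Foxj1-high libraries and 0.237 to 8.03 CPM (median 4.96) in the Foxj1-low libraries (3.23 ± 0.32, adjusted p = 1.15e-07). Drc12, listed as Ccdc153 in mouse, had 32.6 to 82.9 CPM (median 44.5) in the Foxj1-high libraries and 1.65 to 12.8 CPM (median 9.61) in the Foxj1-low libraries (2.50 ± 0.23, adjusted p = 4.93e-08).

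The 2 markers that did not pass were Rarres2, a secreted chemokine, with medians of 7.40 CPM in the Foxj1-high libraries and 7.39 CPM in the Foxj1-low libraries (-0.18, adjusted p = 0.567), and Mia, with medians of 0.427 CPM in the Foxj1-high libraries and 0.234 CPM in the Foxj1-low libraries (adjusted p = 0.152). In a wider list of 13 other ependymal genes, which holds Tmem212, Drc12, Rarres2 and Mia again, 9 rose, 0 fell and 7 did not overlap. Pltp, a lipid transfer protein, had 101.4 to 218 CPM (median 128) in the Foxj1-high libraries and 50.9 to 84.01 CPM (median 67.7) in the Foxj1-low libraries (1.08 ± 0.10, adjusted p = 3.95e-08). Cfap144 rose by 2.49 ± 0.29 (adjusted p = 1.4e-06), and Vim, the intermediate filament of ependyma and other glia, by 1.37 (adjusted p = 0.00333).

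Genes of intraflagellar transport and the primary cilium, a non-motile organelle that neurons and glia carry as well, had smaller fold changes. Of 28 tested, 19 rose, 0 fell and 3 did not overlap, with a median of 0.35. The shares of all genes were 9.77% higher, 6.5% lower and 2.24% with every Foxj1-high library above every Foxj1-low library. In the libraries between the sets edgeR called 0 of the 28, with 11 at an unadjusted p under 0.05 and 3 called by DESeq2. Dync2h1, the retrograde transport motor, had 96.5 to 139 CPM (median 112) in the Foxj1-high libraries and 43.1 to 95.6 CPM (median 79.9) in the Foxj1-low libraries (0.64 ± 0.09, adjusted p = 2.26e-05). Ift140 of the retrograde train rose by 0.65 ± 0.09 (adjusted p = 7.32e-06), Bbs7 by 0.62 ± 0.09 (adjusted p = 2.35e-05) and Dync2li1 by 0.51 ± 0.08 (adjusted p = 3.95e-05). Adcy3 and Sstr3, signalling proteins of neuronal cilia, did not pass (-0.14, adjusted p = 0.306, and -0.44, adjusted p = 0.294).

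Choroid plexus, the secretory epithelium in the ventricle that is also ciliated, was followed by 19 genes. Of these, 8 rose, 0 fell and 3 did not overlap, with a median of 1.57, and 1 passed between the sets. Over all genes 9.77% rose, 6.5% fell and 2.24% had every Foxj1-high library above every Foxj1-low library. A slope above 0 passed between the sets in 1.82% of all genes. The count of 8 was 5 without FCL-VEH male replicate 5 at P42 or PAE-AAE male replicate 6 at P90. Each is the only Foxj1-high library of its group, so without it that group adds nothing to the difference. Summed, the list took 74.8 to 2085 CPM (median 259) in the Foxj1-high libraries and 32 to 3765 CPM (median 156) in the Foxj1-low libraries, with wide overlap.

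Ttr, transthyretin, the most abundant transcript of the choroid plexus, had 15.8 to 1669 CPM (median 176) in the Foxj1-high libraries and 6.89 to 3608 CPM (median 106.8) in the Foxj1-low libraries. The difference of 1.70 ± 1.03 did not pass (adjusted p = 0.292). Of the 13 Foxj1-high libraries, 5 were among the 13 libraries with the most Ttr and 3 among the 13 with the least, while 2 of the Foxj1-low libraries were among the 13 with the most. The highest Ttr of both sets was in a Foxj1-low library, PAE-AAE female replicate 3 at P90. FCL-VEH female replicate 4 at P42, with 97.9 CPM of Foxj1, had 18.7 CPM of Ttr.

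Within the list, Msx1, a homeobox factor, had 17.6 to 46.2 CPM (median 26.7) in the Foxj1-high libraries and 1.78 to 15.4 CPM (median 4.54) in the Foxj1-low libraries (2.87 ± 0.19, adjusted p = 6.97e-09), and it was the member that passed between the sets (slope 0.83, adjusted p = 0.0209). Clic6, a chloride channel protein, rose by 3.52 ± 0.39 (adjusted p = 6.9e-07), Folr1, the folate receptor, by 2.96 ± 0.28 (adjusted p = 8.37e-08), and Otx2, a homeobox factor of the plexus, by 1.57 ± 0.27 (adjusted p = 0.00023). Kl, Kcnj13 and Aqp1 did not pass (1.47, 0.76 and 0.65). The part of choroid plexus in the result was not tested beyond the fit with its score as covariate, given under the processing. The score is the mean of these same genes, so for them that fit removes the shared difference by construction.

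Genes of the neighbouring subventricular zone, where neuroblasts are born, rose in 10 of 17, with 0 lower and 1 without overlap, and a median of 0.46. Of all genes, 9.77% rose, 6.5% fell and 2.24% had every Foxj1-high library above every Foxj1-low library. Dcx, a microtubule protein of migrating neuroblasts, had 58.5 to 161 CPM (median 82.7) in the Foxj1-high libraries and 37.01 to 85.9 CPM (median 53.5) in the Foxj1-low libraries (0.46 ± 0.13, adjusted p = 0.0149). Cdca7, a gene of dividing cells, rose by 1.87 ± 0.34 (adjusted p = 0.000497), Dlx2, a homeobox factor of interneuron precursors, by 0.94 ± 0.20 (adjusted p = 0.00231), and Igfbpl1 by 0.83 ± 0.17 (adjusted p = 0.00153). Cd24, which also marks ependyma and stands in both lists, was the member without overlap (1.09 ± 0.15, adjusted p = 2.04e-05) and the only one that passed between the sets.

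Proliferation genes rose in 16 of 20, with 0 lower, against 9.77% and 6.5% of all genes, and a median of 1.07. Mki67, a protein of cycling cells, had 11.3 to 57.8 CPM (median 25.2) in the Foxj1-high libraries and 2.20 to 32.9 CPM (median 7.49) in the Foxj1-low libraries (1.31 ± 0.25, adjusted p = 0.000845). Top2a rose by 2.03 ± 0.35 (adjusted p = 0.000254), Cenpf by 2.13 ± 0.37 (adjusted p = 0.000245) and Mcm2 by 0.86 ± 0.15 (adjusted p = 0.000335), all with overlapping sets.

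Aurkb, a mitotic kinase, was the only 1 of the 20 members of that list whose sets did not overlap, against 2.24% of all genes. It had 39.9 to 129.05 CPM (median 59.1) in the Foxj1-high libraries and 1.53 to 14.4 CPM (median 10.3) in the Foxj1-low libraries (3.00 ± 0.28, adjusted p = 6.26e-08). It was also the only member that passed between the sets (slope 1.24 ± 0.19, adjusted p = 0.000351). Its relative Aurka had a median of 5.06 CPM in the Foxj1-high libraries and 4.49 CPM in the Foxj1-low libraries and did not pass (0.10, adjusted p = 0.695).

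Septal genes, which mark the tissue medial to the accumbens, rose in 4 of 7, against 9.77% of all genes. Their median was 0.81, with no separation of the sets. Among them, Zic5, a zinc finger factor of the septum, rose by 0.93 ± 0.24 (adjusted p = 0.0113), Zic4, of the same family, by 0.93 ± 0.28 (adjusted p = 0.0273), and Crhr2, a neuropeptide receptor, by 1.18 ± 0.39 (adjusted p = 0.0443). Zic1 had 51.8 to 208 CPM (median 126.1) in the Foxj1-high libraries and 18.3 to 118.8 CPM (median 66.4) in the Foxj1-low libraries and did not pass (0.81, adjusted p = 0.0641). The count of 4 was 0 without PAE-AAE male replicate 6 at P90, 1 without FCL-VEH male replicate 3 or 5 or FCL-VEH female replicate 5 at P90, and 7 without FCL-VEH male replicate 2 at P42. Leaving out PAE-AAE male replicate 6 or FCL-VEH male replicate 3 or 5 at P90 leaves its group in only 1 set. That group then adds nothing to the difference. Between the sets edgeR and DESeq2 called 0 of the septal genes, with 3 at an unadjusted p under 0.05.

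**Figure D4:**
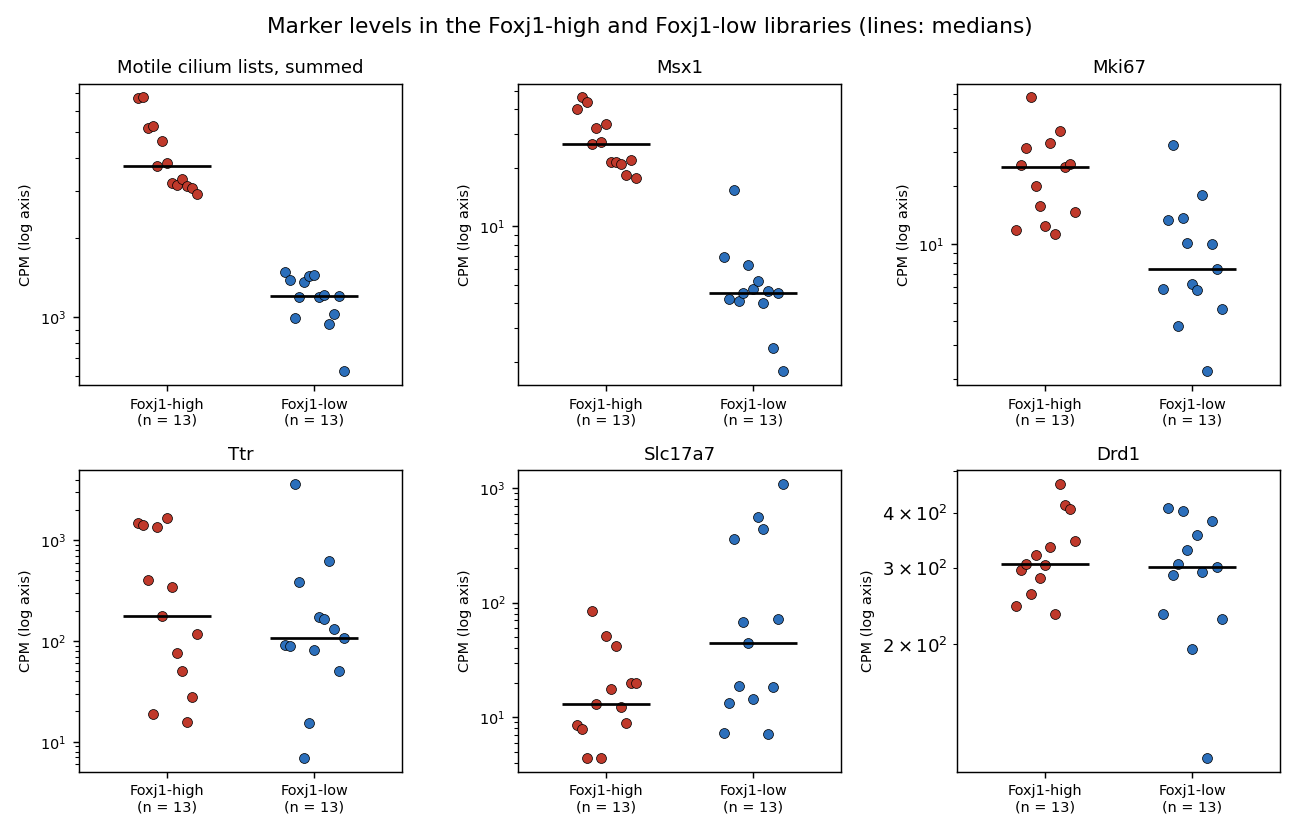
Levels in CPM (log axes) of the motile cilium lists summed, Msx1, Mki67, Ttr, Slc17a7 and Drd1 in the Foxj1-high and Foxj1-low libraries, 1 point a library with the median drawn as a line. The motile cilium sum and Msx1 do not overlap between the sets, Mki67, Ttr and Slc17a7 do, and Drd1 has medians of 306 CPM in the Foxj1-high libraries and 302 CPM in the Foxj1-low libraries.

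Spiny neuron genes, the main cell type of the tissue, gave 0 of 22 called in either direction by edgeR or DESeq2, 0 at an unadjusted p under 0.05, and a median of 0.01. Their summed level was 8538 to 17696 CPM (median 12441) in the Foxj1-high libraries and 4750 to 16513 CPM (median 12338) in the Foxj1-low libraries. Drd1 differed by 0.01 (adjusted p = 0.987), Drd2, the dopamine receptor of the indirect pathway, by 0.04 (adjusted p = 0.905), and Penk, an opioid precursor, by -0.16 ± 0.14 (adjusted p = 0.483). Tac1 and Pdyn, neuropeptide precursors of the direct pathway, differed by -0.11 ± 0.17 (adjusted p = 0.728) and -0.11 ± 0.11 (adjusted p = 0.550). In the libraries between the sets 1 of the 22 had a slope above 0, against 49% of all genes, with a median slope of -0.12. There 0 passed by edgeR or DESeq2, and 0 had an unadjusted p under 0.05.

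Genes listed for cortical excitatory neurons fell in 7 of 14 with 0 higher, against 6.5% and 9.77% of all genes, and a median of -1.56. In the libraries between the sets edgeR called 0 of the 14 and DESeq2 called 1 lower. There 5 were lower at an unadjusted p under 0.05, and 2 of the 14 had a slope above 0, against 49% of all genes. Slc17a7, a vesicular glutamate transporter, had 4.40 to 85.2 CPM (median 13.1) in the Foxj1-high libraries and 7.07 to 1084 CPM (median 44.4) in the Foxj1-low libraries. It fell by 3.13 on the log2 scale (adjusted p = 0.0317) with overlapping sets, and its highest level was in PAE-VEH male replicate 6 at P42, the library with the least Foxj1. Sstr1, a somatostatin receptor, fell by 1.25 on the log2 scale (SE 0.32, adjusted p = 0.00818), Tbr1 by 2.71 (SE 0.76, adjusted p = 0.0163), Neurod6 by 3.34 (SE 0.96, adjusted p = 0.0189) and Neurod2 by 3.25 (SE 0.99, adjusted p = 0.0278), the last 3 being transcription factors of cortical neurons.

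The count of 7 was 1 without FCL-VEH female replicate 2 at P90 or PAE-VEH male replicate 6 at P42. It was 3 without FCL-VEH female replicate 4 at P90, PAE-VEH female replicate 3 or 4 at P42 or PAE-VEH male replicate 7 at P42, and 4 without PAE-VEH male replicate 8 or 9. PAE-VEH females at P42 have 1 library in each set, so without replicate 3 or 4 that group adds nothing to the difference. Of the 13 libraries with the highest score of the cortical genes, 1 was Foxj1-high and 4 were Foxj1-low. Of the 13 with the lowest, 7 were Foxj1-high and 2 were Foxj1-low. The part of cortical tissue in the genes that fell was not tested beyond the fit with that score as covariate. The score is the mean of the listed genes, so for them that fit removes the shared fall by construction.

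In the lists of other cell types, counts of genes past the threshold by edgeR were 2 or fewer, against 9.77% of all genes higher and 6.5% lower. Of 12 astrocyte genes 2 rose, Sox9, a factor shared with ependyma, by 0.80 ± 0.11 without overlap (adjusted p = 2.16e-05) and Gja1, a gap junction protein, by 0.24 ± 0.08 (adjusted p = 0.0373). Of 12 microglial genes Trem2 fell by 0.49 on the log2 scale (adjusted p = 0.046), of 12 vessel genes Acta2 fell by 1.57 (adjusted p = 0.0371), and of 10 meningeal genes Lum fell by 1.09 (adjusted p = 0.0233). By edgeR, a count of 1 in lists of this size is near the share of all genes lower and is no result about these cell types. DESeq2 called 1 microglial, 1 vessel and 3 of the 10 meningeal genes lower, and 2155 lower over all genes. Among 13 myelin genes, 14 immediate early genes and 23 ribosomal protein genes edgeR called 0, with 3, 1 and 4 lower at an unadjusted p under 0.05, and DESeq2 called 1, 0 and 0. Meningeal genes ran from -1.70 to -0.41 with a median of -1.20. Among them, Dcn had 1.23 to 5.35 CPM in the Foxj1-high libraries and 1.61 to 25.5 CPM in the Foxj1-low libraries.

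The 10 genes that fell with the smallest adjusted p changed little and overlapped between the sets. Pde1a, a phosphodiesterase of neurons, had 46.6 to 99.2 CPM (median 85.05) in the Foxj1-high libraries and 93.8 to 167 CPM (median 122) in the Foxj1-low libraries (-0.71 ± 0.13, adjusted p = 0.000439). Zdhhc2, a palmitoyltransferase, had 64.9 to 79.5 CPM (median 71.7) in the Foxj1-high libraries and 76.5 to 94.7 CPM (median 85.7) in the Foxj1-low libraries (-0.37 ± 0.06, adjusted p = 6.05e-05). Rgs7, a regulator of G protein signalling, changed by -0.39 ± 0.07 (adjusted p = 0.000405), and Acsl5, an acyl-CoA synthetase, by -0.42 ± 0.06 (adjusted p = 6.17e-05).

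The other 6 were Guk1 (-0.31, adjusted p = 0.000129), Fbxo9 (-0.32, adjusted p = 0.000138), Evl (-0.26, adjusted p = 0.000158), Sms (-0.30, adjusted p = 0.00017), Smim29 (-0.40, adjusted p = 0.000427) and Igfbp4 (-0.60, adjusted p = 8.52e-05). Igfbp4, a binding protein of insulin-like growth factors, had 8.28 to 13.6 CPM in the Foxj1-high libraries and 9.46 to 21.6 CPM in the Foxj1-low libraries. It was the only 1 of the 10 with a slope that passed between the sets (-0.82 ± 0.20, adjusted p = 0.0289).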

How the data were processed

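Nucleus accumbens RNA was measured in 54 libraries. The authors' table of raw counts, 1 column a library, was used. The submitters' processing notes name fastp and HISAT2 2.0.5; the counter, the annotation release and the build are each not given in the sources used here. Positions matched the rat assembly GRCr8 for 45774 of 45785 named genes. The 720 unnamed entries, with 0.271% to 0.412% of counts, stayed out of the tests, and 54 columns of FPKM values were not used.

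Genes were kept by edgeR's default filter over the labelled groups and tested with edgeR 4.0.16 (quasi-likelihood, TMM, two-sided) in R 4.3.3, with Benjamini-Hochberg adjustment over all genes tested and a threshold of 0.05. Foxj1 was left out of the test it defines. In the 28 libraries between the sets the term was log2(Foxj1 CPM + 0.5). Levels are CPM of total counts. The fits were tested on simulated data. Depth speaks for counting error alone.

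The members, the 21 gene lists and the tests were chosen with earlier results of these data known. Named genes are, in each direction, the 10 called genes of smallest adjusted p that have a symbol and a mean of at least 0.5 CPM, and up to 6 (cilium) or 4 (other) members of each list; a few were named in any case. Of the listed genes, Cdc20b and Dlx1as were not matched. DESeq2 1.42.0, limma 3.58.1 (voom), other set sizes, covariates and single libraries left out served as alternatives.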

Additional observations from a re-analysis of the deposited data

Results flagged for a closer look

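In 16 groups of libraries (8 labelled groups, each for Foxj1 and for the summed motile cilium genes), a single library stood far from the rest of its group in 3, and these were 2 libraries. The flag set the gap to the nearest library against the range of the group, in CPM without logs. For normal and independent values, chance gives about 1 such flag in 20 groups. CPM values need not be normal and the 2 measures rise together, so that rate may not hold and no conclusion is drawn from the count. FCL-VEH male replicate 3 at P90 had 184.3 CPM of Foxj1, the highest of its 6 libraries. PAE-AAE male replicate 6 at P90 had 164.1 CPM of Foxj1 and a motile cilium sum of 6751 CPM, the highest of its 6 libraries in both. Both libraries are in the Foxj1-high set, and each had over 1400 CPM of Ttr (1470 and 1415 CPM).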

How the results depend on the processing

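The count of motile cilium genes higher in the Foxj1-high libraries changed by at most 3 whichever library was left out, and their 85 slopes in the libraries between the sets 78 to 87. The genes higher were 2144 to 2668 with a library left out and within 1.5 times of 2547 in every other fit. Genes lower (1695) were 940 to 1929 with a library left out, 1017 by voom, 2642 with 18 libraries a set, 4000 with Foxj1 as a continuous term over all 54 libraries, 2887 with a choroid plexus score as covariate and 473 with a cortical neuron score as covariate, a fit chosen after seeing the data. Choroid plexus genes higher (8) were 4 with their own score as covariate and 5 to 11 with a library left out. Proliferation genes higher (16) were 10 by voom and 10 with 18 libraries a set, and 14 to 17 with a library left out. Septal genes higher (4) were 7 with sex, age and exposure as covariates and 7 with 18 libraries a set, 0 with either score as covariate, and 0 to 7 with a library left out. Cortical genes lower (7) were 2 by voom, 11 with the continuous term, 0 with their own score as covariate and 1 to 9 with a library left out. Each score is the mean level of its own list, so the count of a list with its own score was largely fixed in advance. Intraflagellar transport genes were 16 to 19 and subventricular zone genes 9 to 12. Between the sets, genes with a slope above 0 were 354 to 668 with a library left out, and the 13 below 0 were 8 with no low-count filter, 57 by DESeq2 and 1 to 239 with a library left out. In each labelled comparison the Foxj1 change kept its sign, and its adjusted p stayed above the threshold, under each alternative run; leaving out a library it ran from -1.12 to -0.45 in females at P42 and from 0.02 to 0.40 in females at P90. With the 3 libraries of unmatched sex markers removed, 2640 genes were higher, 1696 lower and 102 motile cilium genes higher. Where the library left out was the only one of its group in a set, that group added nothing to the difference. Other causes were not tested. No paired analysis was possible because the labels give no replicate numbers that the groups share.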
